A study of Mus musculus with 11 samples.

Results

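Small nucleolar RNAs were followed across 11 RNA libraries of microglia-like cells sorted from mouse brain, in a study of transplantation of blood-forming cells. They were chosen by symbol (Snord or Snora followed by a digit) and selected on their measured counts, which had to sum to 100 or more over all libraries. This gave 74 members, 50 of box C/D (Snord) and 24 of box H/ACA (Snora), of 24411 genes in the tables. The tables held 110 symbols of this pattern, 95 of them with any count. The members at the threshold were Snord58b and Snora69, with 107 and 105 counts, and those just below it were Snora41 and Snord19, with 92 and 88 counts.

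The cells of 9 libraries came from recipients of competitive transplants injected into a vein (IV), into the brain ventricles (ICV) or intrathecally at lumbar level (ITL). For each route 3 sorted populations were sequenced, named by CD45 genotype and label: CD45.2 µ, and both CD45.1 µ and CD45.1 TAµ. Of the other 2 libraries, 1 carried the label PBS (ICV, CD45.2) and 1 was a control, CTR µ, with no genotype given. The labels expand neither TAµ nor PBS, do not assign either CD45 allele to the host, and give no strain, age, sex or number of animals. The series title names an Alzheimer's disease mouse model, but no library label carries a disease allele. Each combination had 1 library, so a spread between populations or routes was measured and a spread between animals was not.

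Small nucleolar RNAs guide enzymes to nascent ribosomal RNA in the nucleolus. Box C/D RNAs direct 2'-O-methylation by fibrillarin and box H/ACA RNAs direct pseudouridylation by dyskerin, each through base pairing with the target. In mammals most are excised from introns of host genes, many of which encode ribosomal proteins, and are then trimmed to the mature RNA. Mature small nucleolar RNAs have no poly(A) tail, and the libraries were labelled as polyadenylated RNA. Reads of the mature RNA and of an unspliced host intron that contains it cannot be told apart in these counts.

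The sequences below show the RNAs on which the results turn, with the boxes in capitals: the C box (ATGATGA or GTGATGA, searched in the first 25 bases) and the D box (CTGA, last 12 bases) of box C/D RNAs, and the ACA box (last 7 bases) of box H/ACA RNAs. They are written 5′ to 3′ as DNA letters, from GENCODE M21 transcripts of the GRCm38 build read by gene name; the count tables use mm39/GRCm39, so no coordinates are given. Snord32a and Snord104 passed a test, Snord34 and Snord35a lie in the same host gene as Snord32a, Snord15b held most of the counts, Snord17 was the longest, and Snora28 and Snora78 had the most counts among box H/ACA members.
Snord32a: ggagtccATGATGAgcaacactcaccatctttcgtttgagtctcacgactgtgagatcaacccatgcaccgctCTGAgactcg
Snord104: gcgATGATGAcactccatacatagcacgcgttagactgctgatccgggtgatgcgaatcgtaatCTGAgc
Snord34: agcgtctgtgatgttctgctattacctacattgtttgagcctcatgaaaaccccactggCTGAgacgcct
Snord35a: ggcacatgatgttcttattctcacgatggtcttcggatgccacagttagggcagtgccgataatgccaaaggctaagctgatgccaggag
Snord15b: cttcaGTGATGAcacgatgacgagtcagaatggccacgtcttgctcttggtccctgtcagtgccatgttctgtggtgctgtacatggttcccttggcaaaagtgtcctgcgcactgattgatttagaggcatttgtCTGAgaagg
Snord17: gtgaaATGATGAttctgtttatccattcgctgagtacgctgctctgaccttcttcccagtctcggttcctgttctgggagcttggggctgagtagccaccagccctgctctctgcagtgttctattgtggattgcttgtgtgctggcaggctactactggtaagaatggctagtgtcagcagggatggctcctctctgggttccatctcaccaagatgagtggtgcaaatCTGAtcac
Snora28: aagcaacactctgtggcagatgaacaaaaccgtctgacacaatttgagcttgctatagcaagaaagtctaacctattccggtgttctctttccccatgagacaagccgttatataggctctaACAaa
Snora78: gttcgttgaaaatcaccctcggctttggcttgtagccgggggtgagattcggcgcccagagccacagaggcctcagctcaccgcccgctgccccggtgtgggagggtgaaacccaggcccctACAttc

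A sequence was matched for 73 of the 74 members. Box C/D members were 65 to 238 nt long with a median of 79 nt, and box H/ACA members were 127 to 184 nt long with a median of 132.5 nt. The C box letters were found in 32 of 49 box C/D members and in 0 of 24 box H/ACA members, against 0.58% of 141767 transcripts in the same window (0.206% for the reverse complement). The D box letters were found in 39 of 49 box C/D members, against 5.76% of transcripts (3.98% for the reverse complement). ACA was found in the last 7 bases of 22 of 24 box H/ACA members and of 4 box C/D members, against 9.72% of transcripts (9.39% for the reverse complement). Snord35a, printed above without capitals, has neither box by these letters.

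In the GENCODE M21 models 70 members lay inside another gene on the same strand, in 54 distinct host genes. Ribosomal protein genes made up 21 of these hosts and held 26 members. A host was shared by 28 members with another member: Rpl13a, a protein of the large ribosomal subunit, held Snord32a, Snord34 and Snord35a, and the noncoding gene Snhg12 held Snord99, Snora44, Snora61 and Snora16a. Among close copies, Snord1b shares 97.4% of its bases with Snord1c, so their reads may not be told apart and the value of Snord1b is uncertain. Snord15a and Snord15b, both in Rps3, share 66%.

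Some well-known small nucleolar RNAs had too few counts to be members. Snord118 (U8), which is needed for maturation of large-subunit rRNA, had 2 counts over all 11 libraries. Snord14a, a family member required for small-subunit rRNA processing, had 8, and Snord116, the neuronal cluster of the Prader-Willi region, had 0. Snord33, the remaining C/D RNA of Rpl13a, had 55 counts. The symbols Snord3a (U3) and Snord13, RNAs that act in rRNA processing, were not listed in the count tables.

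Library totals ran from 6090589 to 21282823 counts. The number of genes with a count was lowest, 10477, in IV CD45.2 µ, next 11456 in ICV CD45.1 µ, and highest in IV CD45.1 TAµ (15492). Of the 74 members, 44 had a count in ICV CD45.1 µ, 51 in IV CD45.2 µ and 59 in IV CD45.1 µ, against 64 to 74 in each of the other 8 libraries. The precursor rRNA transcript Rn45s took 6.98% to 25.1% of counts. Microglial markers were present in every library (10215 to 33292 CPM summed over 8 genes), and neuronal markers summed to 16.4 CPM at most. CPM is the usual depth-scaled count, taken on the library total times its TMM (trimmed mean of M values) factor.

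The members together took 0.0449% to 0.327% of counts in the 9 libraries of the 3 routes, 0.306% in the PBS library and 0.635% in CTR (exact 95% binomial interval 0.631% to 0.639%, counting error only). In CD45.1 µ the share was 0.0801% for IV, 0.0449% for ICV and 0.112% for ITL. In CD45.1 TAµ it was 0.155%, 0.327% and 0.204%, and in CD45.2 µ it was 0.14%, 0.114% and 0.178%, in the same order of routes. Every TAµ share lay above every CD45.1 µ share, and the CD45.2 µ shares lay above those of CD45.1 µ and overlapped those of TAµ. The second separation was narrow. The exact 95% intervals of ICV CD45.2 µ (0.112% to 0.115%) and ITL CD45.1 µ (0.11% to 0.114%) overlapped by counting error alone. Within routes, the log2 ratio of the shares was 1.56 ± 1.13 for TAµ to CD45.1 µ, 0.94 ± 0.36 for CD45.2 µ to CD45.1 µ and 0.62 ± 0.78 for TAµ to CD45.2 µ (mean ± SD, n = 3 routes). Without the ICV route the first was 0.91 and the third 0.17. Within populations it was -0.022 ± 0.98 for ICV to IV, 0.41 ± 0.072 for ITL to IV and 0.43 ± 1.02 for ITL to ICV (n = 3 populations), so that the spread exceeded the mean in 2 of these 3. In bulk RNA a larger share of cells rich in these RNAs and more of the RNA per cell cannot be told apart.

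**Figure D1:**
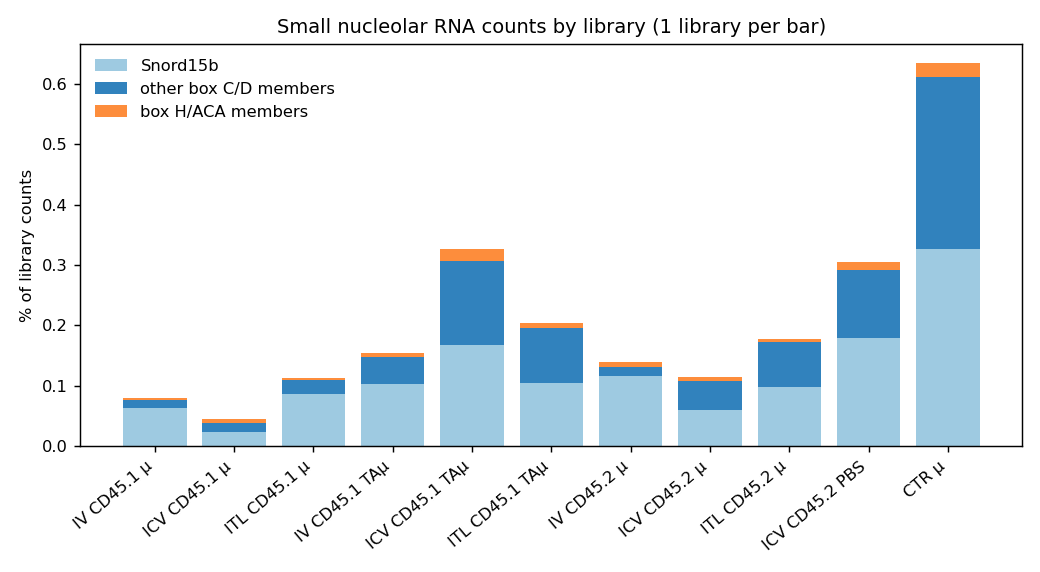
Stacked bars give the percentage of each library's counts held by Snord15b, by the other box C/D members and by the box H/ACA members, with 1 library per bar and no error bars because groups had 1 library. The bars of CD45.1 µ reach 0.0449% to 0.112%, those of CD45.1 TAµ 0.155% to 0.327%, and CTR 0.635%.

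A single RNA dominated the class. Snord15b, a methylation guide for large-subunit rRNA, gave 179610 counts, and 50.9% to 82.6% of all member counts in each of the 9 libraries. Corrected for length, its mean level was 8548 CPM per kb, against 1823 CPM per kb for Snord32a and 1127 CPM per kb for Snord83b. Without Snord15b the class share was 0.0178%, 0.022% and 0.0261% in CD45.1 µ (IV, ICV, ITL) and 0.0516%, 0.159% and 0.1% in CD45.1 TAµ. In CD45.2 µ it was 0.0245%, 0.0542% and 0.0794%, so the IV value fell inside the range of CD45.1 µ once Snord15b was left out.

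The balance of the 2 classes varied between libraries. Box C/D counts were 20.7, 5.92 and 36.8 times the box H/ACA counts in CD45.1 µ (IV, ICV, ITL). They were 18.1, 15.1 and 24 times in CD45.1 TAµ and 14.3, 18.2 and 28 times in CD45.2 µ. Without Snord15b the ratios were 3.81, 2.4 and 7.79 in CD45.1 µ, 5.33, 6.82 and 11.2 in TAµ and 1.66, 8.12 and 11.9 in CD45.2 µ, so that the widest range moved from CD45.1 µ to CD45.2 µ. With Snord15b, the lowest ratio belonged to ICV CD45.1 µ, where Snora28, Snora30, Snora69 and Snora47 carried most of the box H/ACA counts (187, 245, 101 and 76). Snora69 had 4 counts in IV CD45.1 TAµ and 0 in the remaining 9 libraries. Of all members, 5 (6.76%) had more of their summed CPM in 1 library than in all others together, against 4.96% of 12767 other genes with 100 to 179610 counts.

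Levels of individual RNAs were then compared between CD45.1 TAµ and CD45.1 µ, the populations that share the CD45.1 genotype. All genes were fitted together in an additive model of route and population (edgeR quasi-likelihood test, Benjamini-Hochberg adjusted p under 0.05 over 13339 genes). Of the 74 members 71 passed the filter on low counts; Snord67, Snord90 and Snora69 did not. Snord32a and Snord104 passed the test, both higher in TAµ. This is 2 of 71 members, against 0.0225% of all genes called higher and 0.0525% called lower.

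Snord32a guides methylation of ribosomal RNA and is one of the Rpl13a intron RNAs known from studies of lipotoxic stress. Its level in CD45.1 µ was 9.04 CPM (IV), 7.89 CPM (ICV) and 34.7 CPM (ITL). In CD45.1 TAµ it was 31.2 CPM, 275 CPM and 226 CPM. TAµ was higher on every route, but the IV TAµ library lay just under the ITL CD45.1 µ library, so the groups overlapped. The fitted log2 fold change was 3.22 ± 0.47 (SE, n = 3 libraries per population, adjusted p = 0.00826 by edgeR). Here and below, SE is the absolute fold change divided by the square root of the edgeR F statistic. It comes from the fit of 9 libraries and is not a standard error over 3 values.

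Snord104, a methylation guide for large-subunit rRNA for which no host was found, had 4.02, 6.59 and 11.9 CPM in CD45.1 µ (IV, ICV, ITL). In CD45.1 TAµ it had 15.2, 165 and 71.7 CPM. The groups did not overlap, although the IV TAµ library was close to the ITL CD45.1 µ library. The log2 fold change was 3.22 ± 0.52 (SE, n = 3, edgeR adjusted p = 0.0188).

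These 2 calls depended on the fit. No member was called with edgeR's legacy quasi-likelihood fit, where the adjusted p was 0.131 for Snord32a and 0.272 for Snord104, or without the block for route. No member was called when ITL CD45.1 µ, IV CD45.1 TAµ or ICV CD45.1 µ was left out. Without ITL CD45.1 TAµ or without ICV CD45.1 TAµ 1 member was called, and without IV CD45.1 µ 4. Leaving out IV CD45.2 µ, a library outside the contrast, gave 6. DESeq2 called 14 members higher (1.25% of all genes) and limma-voom 1 (0.0075%).

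The remaining members did not pass, but most had values in the same direction. The log2 fold change was above 0 for 63 of 71 members, with a median of 2.82, against a median of 0.057 over all 13339 genes. The 3 libraries of TAµ all lay above the 3 of CD45.1 µ for 43 members of the 71 tested (9.46% of all genes), and all lay below for 0 members (4.65% of all genes), which could not occur for the 36 members with a 0 in a CD45.1 µ library. TAµ was higher on all 3 routes for 49 members (18.6% of all genes). At an unadjusted p under 0.05, 33 members were higher (3.23% of all genes) and 0 lower (2.13%). Members share libraries and hosts, so these counts describe the 6 libraries and are not independent observations. Selection on counts summed over all libraries favours RNAs high in TAµ here, and RNAs high in a compared group in the contrasts below. Snora3 (25, 48 and 11 of 133 counts in TAµ) and Snord58b (10, 14 and 7 of 107) reached the threshold only with TAµ. In both, the TAµ libraries all lay above those of CD45.1 µ. Snord2 (18, 24 and 4 of 133) also needed TAµ, and its groups overlapped.

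Several short box C/D RNAs had large differences that missed the threshold. Snord57 and Snord12 are named here after their values were seen. Snord57, a guide for small-subunit rRNA within Nop56, had 1.05, 0.0814 and 1.13 CPM in CD45.1 µ and 3.93, 36.5 and 27.6 CPM in TAµ (IV, ICV, ITL), with a log2 fold change of 4.61 ± 1.02 (SE, n = 3, edgeR adjusted p = 0.129). Snord12 within Zfas1 (listed as 1500012F01Rik) had 0.233, 0.57 and 2.87 CPM against 8.94, 25.1 and 29.9 CPM. Snord100, a guide for small-subunit rRNA within Rps12, had 5.02, 1.3 and 7.74 CPM against 13.7, 103 and 61.5 CPM. For each of these RNAs the 2 groups were apart, and the ICV library had the highest or second highest TAµ level.

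**Figure D2:**
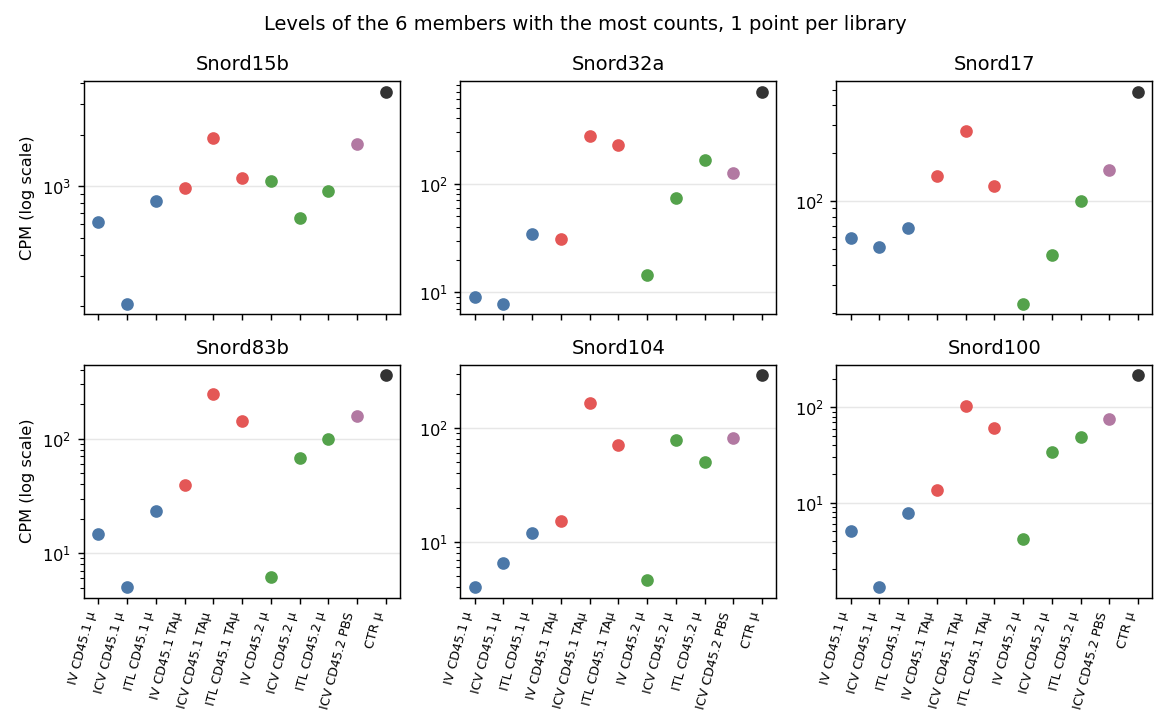
Each panel gives 1 of the 6 members with the most counts, with CPM on a log axis and 1 point per library, coloured by population. CTR is the highest point in every panel, and the CD45.1 µ points lie low, at 7.89 to 34.7 CPM for Snord32a and 4.02 to 11.9 CPM for Snord104.

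Snord15b and Snord17, the long abundant members, differed less. Snord15b had 619, 207 and 819 CPM in CD45.1 µ and 975, 1920 and 1112 CPM in TAµ, a log2 fold change of 1.41 ± 0.39 (SE, n = 3, edgeR adjusted p = 0.529). Snord17, a large-subunit guide within the sorting nexin gene Snx5, had 58.6, 51.7 and 68.3 CPM against 144, 277 and 124 CPM, a log2 fold change of 1.58 ± 0.39 (edgeR adjusted p = 0.341). Both sets of libraries were apart without passing the test. By length, the median log2 fold change was 3.18 over 40 box C/D members under 100 nt and 1.48 over the 7 tested box C/D members of 100 nt or more; this difference was not tested.

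Box H/ACA members were more mixed. Of 23 tested, 17 had a log2 fold change above 0, with a median of 2.43 and an interquartile range of 0.23 to 3.43, and 0 passed edgeR's test (7 higher and 0 lower at an unadjusted p under 0.05; 0 passed with DESeq2 and 0 with limma-voom). Snora78, within Snhg9, had 9.86, 3.74 and 2.87 CPM in CD45.1 µ and 6.28, 64.3 and 17.5 CPM in TAµ, so the IV pair went the other way. Snora28, within the translation factor gene Eif5, had 0.408, 15.2 and 0.609 CPM against 23.3, 1.05 and 11 CPM, and there the ICV pair went the other way. Snora62 was listed at 0 in all 3 CD45.1 µ libraries, and with it set to the level that 3 counts over the group would give, the median over all members remained 2.82.

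**Figure D3:**
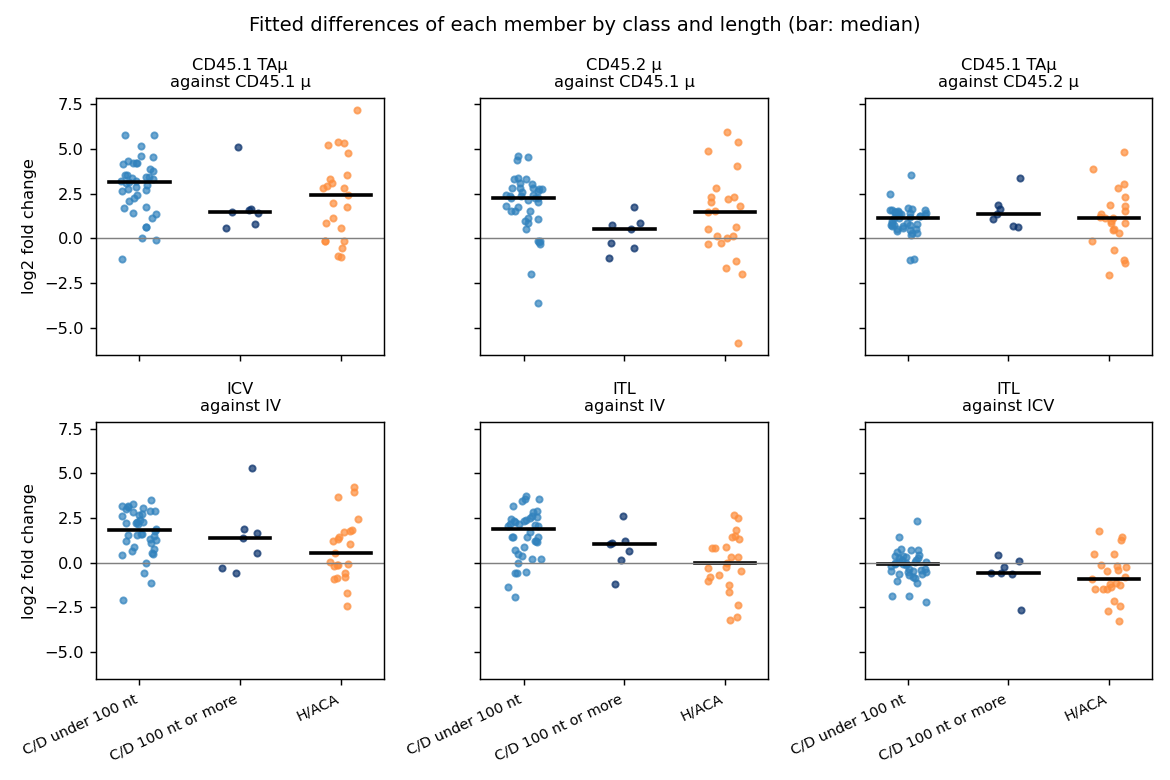
Each point is the fitted log2 fold change of 1 member in 1 of the 6 contrasts, split into box C/D RNAs under 100 nt, box C/D RNAs of 100 nt or more and box H/ACA RNAs, with a bar at the median. In CD45.1 TAµ against CD45.1 µ the medians are 3.18, 1.48 and 2.43; in ITL against IV they are 1.88, 1.05 and -0.027.

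The host genes were set beside the RNAs inside them. The median log2 fold change of the 54 hosts in CD45.1 TAµ against CD45.1 µ was 0.20, and 0 passed edgeR's test (2 higher and 0 lower at an unadjusted p under 0.05; 0 passed with DESeq2 and 0 with limma-voom). In 67 pairs of a tested member and its host, the member's fold change was the larger in 60, with a median gap of 2.57 log2 units. Rpl13a had 89.3, 98.1 and 139 CPM in CD45.1 µ and 93.6, 159 and 197 CPM in TAµ, a log2 fold change of 0.42. Its 3 intron RNAs had log2 fold changes of 3.22 (Snord32a), 3.54 (Snord34) and 3.43 (Snord35a).

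Rps3, host of the Snord15 pair, gave a log2 fold change of 0.32, against 1.41 for Snord15b and 1.48 for Snord15a. Snhg12 gave 0.93 and its RNAs 4.20 (Snord99), 3.53 (Snora44), 3.33 (Snora61) and 5.22 (Snora16a). RNAs of different class within 1 host could differ: in nucleolin (Ncl), at -0.072, the box C/D RNA Snord82 was at 2.74 and the box H/ACA RNA Snora75 at -0.15. No fold change of these members besides that of Snord32a passed the test.

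**Figure D4:**
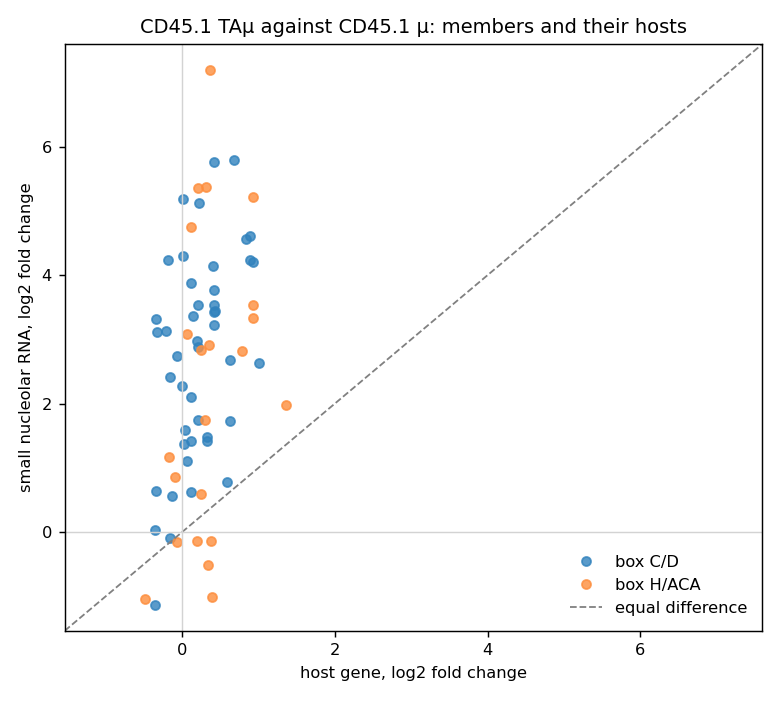
For 67 pairs, the log2 fold change of the host gene (x axis) is set against that of the small nucleolar RNA inside it (y axis) in CD45.1 TAµ against CD45.1 µ, and the dashed line marks equal values. In 60 pairs the point is above the line, and hosts have a median of 0.20 where all tested members have 2.82.

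Genes for the particles' proteins and for other RNA machinery were set beside the members, from lists written with earlier results of these data known. Among box C/D core proteins 3 of 4 were in the tables, with log2 fold changes in TAµ against CD45.1 µ of 0.85 (Fbl, the methyltransferase fibrillarin), 0.89 (Nop56) and 0.11 (Nop58). Of the box H/ACA core proteins, Dkc1, the pseudouridine synthase dyskerin, was at -0.52, Gar1 at -1.23, Nop10 at -0.89 and Nhp2 at 1.22. Assembly and transport factors had a median of 0.28 over 14 genes and RNA processing and decay factors 0.089 over 15 genes. In none of these 4 lists did a gene pass edgeR's test (1 core protein was higher and 0 genes were lower at an unadjusted p under 0.05), DESeq2's or limma-voom's.

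The list of other structured RNAs, which also holds the rRNA precursor Rn45s, had a median log2 fold change of 0.89 over 14 tested, all 14 above 0, and 1 passed: Rmrp, the RNA of the RNase MRP particle, at 1.97 ± 0.34 (SE, n = 3, edgeR adjusted p = 0.0397). DESeq2 called 2 of them. Rnu73b, a small nucleolar RNA whose symbol falls outside the pattern, had 0.642, 0.651 and 3.83 CPM in CD45.1 µ and 3.04, 52.7 and 41.9 CPM in TAµ. Its log2 fold change was 4.20 ± 0.80 (SE, n = 3, edgeR adjusted p = 0.0585).

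Several library measures moved with the same contrast. Genes with a count numbered 15492, 13560 and 15485 in TAµ and 12192, 11456 and 12232 in CD45.1 µ (IV, ICV, ITL). Rn45s took 8.95%, 25.1% and 23.5% of counts in TAµ and 11.9%, 6.98% and 12.1% in CD45.1 µ. T and NK cell markers (4 of 5 in the tables) summed to 7.96 to 11.6 CPM in TAµ and 0 to 2.87 CPM in CD45.1 µ, and Cd3e, Cd3g, Nkg7 and Gzmb were each at 0 in some of the 9 libraries. Of 8 microglial markers Sall1 was called lower in TAµ, with a log2 fold change of -4.83 (edgeR adjusted p = 0.000199). Neutrophil markers (5 of 5) summed to 821 to 2852 CPM against 988 to 12420 CPM, and endothelial markers (5 of 5) to 23.3 to 335 CPM against 13.7 to 52.9 CPM. Their part in the result was not tested.

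The comparison of CD45.2 µ to CD45.1 µ used the same 3 routes and shared the CD45.1 µ libraries with the contrast above. No member passed edgeR's test (13 higher, against 4.94% of all genes, and 1 lower, against 3.85%, at an unadjusted p under 0.05), where 0% of all genes were called higher and 0.03% lower. DESeq2 called 3 members higher, Snord32a, Snord104 and Snord12 (1.75% of all genes), and limma-voom 0 (0%). The median log2 fold change was 1.75, against -0.0074 over all genes, and 55 of 71 were above 0. The groups were apart, with CD45.2 µ higher, for 9 members (5.75% of all genes) and lower for 0 (4.35%), and 30 members were higher on all 3 routes (13.2%). CD45.2 µ could not lie lower for the 36 members with a 0 in a CD45.1 µ library. It could not lie higher for the 25 with a 0 in a CD45.2 µ library.

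Snord32a in CD45.2 µ had 14.6 CPM (IV), 74.5 CPM (ICV) and 166 CPM (ITL), overlapping CD45.1 µ, with a log2 fold change of 2.05 ± 0.47 (SE, n = 3, edgeR adjusted p = 0.389). Snord104 had 4.69, 78.6 and 50.8 CPM, with a log2 fold change of 2.28 ± 0.55 (edgeR adjusted p = 0.389). The IV library was the low one in both. The member lower at an unadjusted p under 0.05 was Snora30, with 0, 0.256 and 0.156 CPM in CD45.2 µ and 0, 19.9 and 2.7 CPM in CD45.1 µ, so that its difference came from the ICV and ITL libraries.

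Cell markers moved with this contrast too: the endothelial list had a median log2 fold change of 2.52, with 4 of 5 genes higher at an unadjusted p under 0.05, and the astrocyte list 1.21, with 3 of 5. No gene of either list was called by edgeR or limma-voom, and DESeq2 called 1 gene of each list higher. Their part in the result was not tested.

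The values of IV CD45.2 µ, the library with the fewest genes detected, were as follows. Snord15b stood at 1066 CPM there, the highest of the 3 CD45.2 µ libraries, while Snord83b had 6.18 CPM, Snord100 4.19 CPM and Snord68 0.213 CPM; ICV CD45.1 µ was lower still for Snord83b (5.04 CPM) and Snord100 (1.3 CPM). Snord89 was listed at 0, which allows up to 0.232 CPM from 3 counts of the library total. Several less counted members had their highest level of all 11 libraries in it, among them Snora28 (35.3 CPM), Snora21 (7.6 CPM), Snora65 (6.96 CPM), Snord69 (8.67 CPM) and Snord90 (9.31 CPM); these were chosen after their values were seen. Snord90 had 131 of its 152 counts there.

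CD45.1 TAµ was also compared with CD45.2 µ. No member passed edgeR's test (12 higher, against 3.07% of all genes, and 0 lower, against 3.69%, at an unadjusted p under 0.05), where 0.075% of all genes were called higher and 0.27% lower; DESeq2 called 1 member higher, Snord17 (0.555% of all genes), and limma-voom 0 (0.165%). The median log2 fold change was 1.12, against 0.098 over all genes, with 64 of 71 above 0. The groups were apart for 9 members with TAµ higher (6.41% of all genes) and for 0 with TAµ lower (5.5%), and 41 were higher on all 3 routes (16.6%). TAµ could not lie lower for the 25 members with a 0 in a CD45.2 µ library, nor higher for the 1 with a 0 in a TAµ library. Snord17 had the smallest p: its levels were 144, 277 and 124 CPM in TAµ and 22.8, 45.7 and 101 CPM in CD45.2 µ (IV, ICV, ITL), which did not overlap. The log2 fold change was 1.85 ± 0.41 (SE, n = 3, edgeR adjusted p = 0.0714). Among cell markers, the microglial genes P2ry12 and Sall1 were called lower in TAµ (2 of 8), the macrophage gene Mrc1 higher (1 of 5) and the astrocyte gene Slc1a3 lower (1 of 5). Their part in the result was not tested.

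Route was compared with population as the block. For ITL against IV, Snord32a passed the test, and it was the only gene of 13339 called higher (0.0075% of all genes; 28 genes or 0.21% were called lower). Its 3 ITL libraries had 34.7, 226 and 166 CPM and its 3 IV libraries 9.04, 31.2 and 14.6 CPM (CD45.1 µ, then TAµ, then CD45.2 µ). The groups did not overlap, and the log2 fold change was 2.89 ± 0.46 (SE, n = 3, edgeR adjusted p = 0.00941). The call was absent with the legacy fit and without the block, and after leaving out any one of IV CD45.1 TAµ, IV CD45.2 µ, ITL CD45.1 µ, ITL CD45.1 TAµ and ITL CD45.2 µ. DESeq2 called 4 members higher, Snord32a, Snord104, Snord12 and Snord68 (0.532% of all genes), and limma-voom called Snord32a and Snord104 (0.015%).

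At an unadjusted p under 0.05, 10 members were higher for ITL (2.26% of all genes) and 0 lower (3.09%). The routes were apart for 5 members with ITL higher (6.3%) and 3 with ITL lower (5.9%), and 32 were higher in all 3 populations (17.2%). ITL could not lie lower for the 27 members with a 0 in an IV library, nor higher for the 12 with a 0 in an ITL library.

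Box C/D and box H/ACA members differed in this contrast by their medians, 1.44 over 48 and -0.027 over 23 tested members, against 0.049 over all genes; the difference was not tested. Snord68, a C/D RNA within Rpl13, had 2.44, 31.3 and 16 CPM for ITL and 0.35, 3.74 and 0.213 CPM for IV (CD45.1 µ, then TAµ, then CD45.2 µ). Snord15b was at 819, 1112 and 937 CPM for ITL and 619, 975 and 1066 CPM for IV, with a log2 fold change of 0.14 ± 0.36 (SE, n = 3, edgeR adjusted p = 0.969). Snord15a, from the same host, had 7.57, 17.5 and 8.57 CPM for ITL and 14.1, 29.1 and 32.9 CPM for IV, lower in each population, with a log2 fold change of -1.19 ± 0.57 (edgeR adjusted p = 0.914). The hosts of the class had a median of 0.027, with 0 of 54 called by edgeR (1 higher and 4 lower at an unadjusted p under 0.05), by DESeq2 or by limma-voom.

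For ICV against IV no member passed edgeR's test (17 higher, against 5.17% of all genes, and 0 lower, against 4.05%, at an unadjusted p under 0.05), nor did any gene (0%); DESeq2 called Snord104, Snord23 and Snord32a higher (0.682% of all genes), and limma-voom 0 members (0%). The median was 1.5 log2 units, against 0.065 over all genes, with 54 of 71 above 0. The routes were apart for 1 member with ICV higher (5.08% of all genes) and 1 with ICV lower (4.49%), and 14 were higher in all 3 populations (12.6%). ICV could not lie lower for the 27 members with a 0 in an IV library, nor higher for the 29 with a 0 in an ICV library. The ICV libraries were far apart: Snord104 had 6.59, 165 and 78.6 CPM (CD45.1 µ, then TAµ, then CD45.2 µ), against 4.02, 15.2 and 4.69 CPM for IV. The log2 fold change was 3.13 ± 0.51 (SE, n = 3, edgeR adjusted p = 0.0757).

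ITL against ICV gave the least. No member passed edgeR's test, and at an unadjusted p under 0.05 there were 0 higher (1.63% of all genes) and 0 lower (2.16%); no gene was called (0%), and 0 members were called by DESeq2 (0.105% of all genes higher) or limma-voom (0.015%). The median was -0.36, against -0.022 over all genes, with 25 of 71 above 0. The routes were apart for 2 members with ITL higher (4.9% of all genes) and 2 with ITL lower (5.08%), and 7 were higher in all 3 populations (13%). ITL could not lie lower for the 29 members with a 0 in an ICV library, nor higher for the 12 with a 0 in an ITL library. Snord32a had 34.7, 226 and 166 CPM for ITL and 7.89, 275 and 74.5 CPM for ICV, with a log2 fold change of 0.68 ± 0.40 (SE, n = 3, edgeR adjusted p = 0.998).

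The control library was set beside the 9 libraries to place the levels after transplantation. With 1 CTR library there is no replicate and no test. Members were selected on counts summed over all libraries, CTR included, which favours RNAs high in CTR. Snord92 (35 of 119 counts in CTR), Snord67 (28 of 113), Snord58b (20 of 107) and Snora62 (55 of 153) reached the threshold only with CTR. In each of them CTR lay above the highest of the 9, so they are part of the next count. CTR exceeded the highest of the 9 for 48 of 74 members, against 8.97% of 14766 genes; by class these were 40 of 50 box C/D and 8 of 24 box H/ACA members. It was below the lowest for 0 members (4.69% of genes), but 47 of the 74 had a 0 among the 9 libraries and could not have been. It was over 1 log2 unit above the mean of the 9 for 67 members (15.6% of genes) and over 1 log2 unit below it for 1 (11%). The median log2 difference of CTR from the mean of the 9 was 2.65, against 0.15 over all genes and -0.035 over the 54 hosts. The list of other structured RNAs was also higher in CTR, with a median of 1.68 over 15 genes. Of these, 14 were above the mean of the 9 and 7 above the highest of them.

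By the ratio of CTR to the highest of the 9, the largest gaps were in Snord49b, Snord34, Snord89, Snord99, Snord61 and Snord110. Snord49b, a large-subunit guide, stood at 68.9 CPM in CTR against 1.22 to 21.1 CPM (median 13.1) in the 9, so that CTR was 3.26 times the highest of them; the PBS library was near CTR, at 66.4 CPM. Snord99 had 90 CPM against 0.467 to 30.1 CPM (median 1.71). Snord61, a small-subunit guide within Rbmx, had 12.2 CPM against 0 to 4.29 CPM, and Snord110 within Nop56 had 17.7 CPM against 0 to 6.28 CPM. Among the most counted, Snord15b had 3557 CPM against 207 to 1920 CPM, Snord17 486 CPM against 22.8 to 277 CPM and Snord83b 359 CPM against 5.04 to 248 CPM.

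For the other members CTR did not exceed the highest of the 9. Snora28 had 12.6 CPM in CTR, inside the range of 0.408 to 35.3 CPM of the 9 libraries, and Snora78 had 38.4 CPM, below the 64.3 CPM of ICV CD45.1 TAµ. Snord90 and Snora69 were listed at 0 in CTR, which allows up to 0.23 CPM. Of the 54 host genes 3 lay above the highest and 1 below the lowest of the 9. Rpl13a was at 131 CPM in CTR, with 88.2 to 197 CPM elsewhere among the 9, and Rps3 181 CPM against 111 to 315 CPM.

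**Figure D5:**
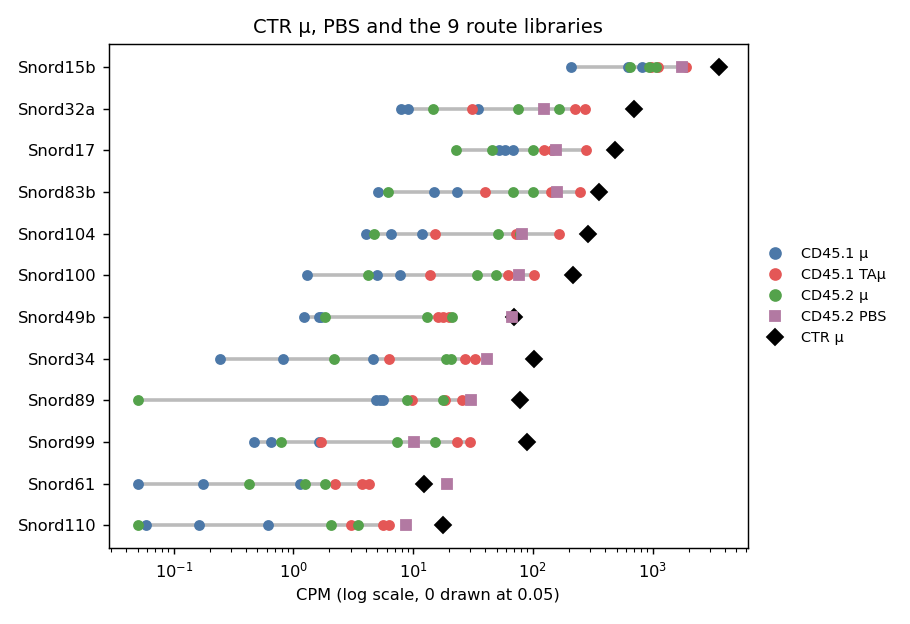
CPM on a log axis for the 6 most counted members and the 6 with the largest gap of CTR above the 9 libraries; circles are the 9 libraries by population, squares PBS, diamonds CTR, grey lines the range of the 9, and 0 is drawn at 0.05. The CTR diamond lies above every circle in all 12 members, and the PBS square of Snord61 lies above CTR.

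Cell markers also separated CTR. Microglial markers (8 of 8) summed to 33292 CPM in CTR, against 10842 to 19565 CPM for the 9. Brain macrophage markers (5 of 5) summed to 776 CPM against 4423 to 33577 CPM. Of these macrophage genes 3 lay below the lowest of the 9, and 2 were above the mean log2 level of the 9. Neuronal markers (5 of 5) summed to 6.16 CPM in CTR, within the 2.22 to 16.4 CPM of the 9 libraries. Their part in the result was not tested. The 9 libraries and CTR differ in transplantation and possibly in genotype, which cannot be told apart.

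The ICV CD45.2 PBS library was compared with ICV CD45.2 µ, the library of the same route and genotype, again 1 against 1 and without a test. The class share was 0.306% against 0.114%. Of 74 members, 35 were over 1 log2 unit higher in PBS, against 9.16% of 14766 genes, and 0 over 1 log2 unit lower, against 11.5%. The median log2 difference was 0.91, against 0 over all genes and -0.033 over hosts. Members were selected on counts that include PBS, which favours RNAs high in it. Snord42a (78 of 152 counts in PBS), Snord92 (21 of 119) and Snord2 (36 of 133) reached the threshold only with PBS. So did Snord67 (34 of 113) and Snord58b (27 of 107). Their ratios of PBS to ICV CD45.2 µ were 9.61, 4.14, 1.61, 1.24 and 1.27, in that order, and they are included above.

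Among members with 100 counts or more in the pair, the largest ratio was for Snord61, with 19.1 CPM against 1.84 CPM, 10.3-fold (exact 95% interval 7.34 to 15, counting error only). Snora61 followed with 11.6 against 1.33 CPM (8.72-fold), Snord70 within Nop58 with 14.8 against 2.51 CPM (5.89-fold) and Snord111 with 12.8 against 2.76 CPM (4.62-fold). The smallest ratios were 0.831 for Snord35b, 1.04 for Snord104 (81.4 against 78.6 CPM), 1.15 for Snord57 and 1.21 for Snord82. Snord15b was 2.73-fold higher in PBS (1771 against 650 CPM). The exact intervals of Snord35b, Snord104, Snord57 and Snord82 included 1.

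In the same pair, astrocyte markers (5 of 5) summed to 46.8 CPM in PBS and 237 CPM in ICV CD45.2 µ, and microglial markers (8 of 8) to 10215 and 15535 CPM. Oligodendrocyte markers summed to 98.1 and 278 CPM, endothelial markers to 28.5 and 47 CPM and neuronal markers to 1.97 and 9.62 CPM. In PBS 1 oligodendrocyte gene and 1 endothelial gene were higher. T and NK cell markers (4 of 5 in the tables) summed to 4.08 and 0.614 CPM. Rn45s took 13.6% and 21.8% of counts. Their part in the result was not tested.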

How the data were processed

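RNA of sorted microglia-like cells was sequenced as 11 libraries, 1 per group. The authors deposited whole-number gene counts per library (column 2 used here), from STAR on mm39/GRCm39 per the submitters' processing notes. The STAR version, the annotation and the strandedness of the counts were not given in the sources used here. Library totals of 6090589 to 21282823 counts set the precision, and exact intervals and the 3-count limits cover counting error only. From the counts, CPM was computed on totals scaled by TMM factors. The main test was edgeR 4.0.16 quasi-likelihood (R 4.3.3, current dispersion method, filterByExpr with a minimum count of 10 and total of 15) with population and route as additive terms on 9 libraries (4 residual degrees of freedom, common biological coefficient of variation 0.842), Benjamini-Hochberg adjusted over 13339 genes at 0.05. Each p-value weighs a difference against the spread of the libraries left after the population and route terms. A spread between animals was not measured separately. CTR and PBS were compared without a test, on log2 CPM with a prior count of 2. The fit was also run on counts simulated without route effects. That setting is simpler than these data, so it does not bear on how the member calls depend on single libraries. DESeq2 1.42.0, limma-voom (limma 3.58.1) and other scalings, filters and left-out libraries were tried. Hosts and sequences came from GENCODE M21 (GRCm38).

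The members and lists were chosen with earlier results of these data known. Named members were those past the threshold (otherwise those with the smallest p), the most counted, those with the largest CTR gaps and PBS ratios, those at the 100-count threshold and those of known role; other members are named as chosen after their values were seen or as sharing a host with a named one.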

Additional observations from a re-analysis of the deposited data

Results flagged for a closer look

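The share of counts held by the small nucleolar RNAs moved in opposite directions between routes in different populations. From IV to ICV its log2 ratio was -0.84 in CD45.1 µ, 1.07 in CD45.1 TAµ and -0.30 in CD45.2 µ. From ICV to ITL it was 1.32 in CD45.1 µ, -0.68 in CD45.1 TAµ and 0.65 in CD45.2 µ. Each value compares 1 library with 1 library, and the differences between populations were not tested. Without Snord15b the share was higher for ICV than for IV in all 3 populations, at 0.022% against 0.0178% in CD45.1 µ, 0.159% against 0.0516% in TAµ and 0.0542% against 0.0245% in CD45.2 µ.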

How the results depend on the processing

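No paired analysis was possible because the labels carry no replicate or animal numbers. Route and population, which the labels do give, were terms of the model, and ratios within a route or population compare different sorted libraries, not known pairs of animals. The number of small nucleolar RNAs called in CD45.1 TAµ against CD45.1 µ, 2, became 4 with library totals, 4 with no filter on low counts, 0 with the legacy fit, 14 with DESeq2, 1 with limma-voom, 0 with no block for route, 7 in a fit of all 11 libraries, 0 without the 2 libraries with the fewest genes detected (ICV CD45.1 µ, IV CD45.2 µ), and 0 to 6 when 1 library was left out. The 1 call in ITL against IV became 2 with no filter, 0 with the legacy fit, 4 with DESeq2, 2 with limma-voom, 0 with no block for population, 2 with all 11 libraries, 2 without both sparse libraries, and 0 to 2 when 1 library was left out. From 0 calls, CD45.2 µ against CD45.1 µ went to 3 with DESeq2. TAµ against CD45.2 µ went to 1 with no filter, 1 with DESeq2, 1 with all 11 libraries and 0 to 1 when 1 library was left out. ICV against IV went to 1 with library totals, 1 with no filter, 3 with DESeq2, 1 with all 11 libraries and 0 to 1 when 1 library was left out. In ITL against ICV it remained 0 under every alternative run. Over the 19 alternatives the median log2 fold change of the members in TAµ against CD45.1 µ ran from 2.13 to 3.55 and in ITL against IV from 0.84 to 1.84. Library totals shifted the median of all genes by -0.12 in TAµ against CD45.1 µ, with the members at 2.68.

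When 1 route was left out, the log2 ratio of the class share ran from 0.91 to 1.91 for TAµ to CD45.1 µ, from 0.74 to 1.08 for CD45.2 µ to CD45.1 µ and from 0.17 to 0.86 for TAµ to CD45.2 µ, lowest without ICV in each. The log2 ratio of the class share of ICV to IV, -0.022, turned to 0.12 without Rn45s, 0.11 with TMM factors, 1.11 without the 3 most counted members, 1.03 without Snord15b, and -0.57 to 0.38 when 1 population was left out. ITL to IV went from 0.41 to 0.53 without Rn45s, 0.95 without the 3 members and 1.07 without Snord15b. ITL to ICV went from 0.43 to -0.16 without the 3 members and -0.015 to 0.98 when 1 population was left out. CD45.2 µ to CD45.1 µ went from 0.94 to 1.37 without the 3 members. PBS to ICV CD45.2 µ went from 1.43 to 1.28 without Rn45s, 1.29 with TMM factors, 1.19 without the 3 members and 1.22 without Snord15b. The log2 ratio of box C/D to box H/ACA counts was 4.05, 4.23 and 4.28 in CD45.1 µ, then TAµ, then CD45.2 µ. It was 1.17, 2.20 and 1.94 without the 3 members and 2.05, 2.89 and 2.44 without Snord15b. The legacy fit and the values without Snord15b were added after seeing the data, and the cause of these changes was not tested beyond what each alternative leaves out. Of the named members' values, 304 kept their direction and side of the threshold, 22 fell below it and 16 passed it. Depth limits the low members: a count of 0 allows 0.141 to 0.493 CPM.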
